A study of Mus musculus with 6 samples.

Results

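The 39 genes described here encode parts of the lysosome and its regulators: 3 transcription factors (Tfeb, Tfe3 and Mitf), 5 membrane proteins, 4 V-ATPase subunits, 10 cathepsins and other proteases, 10 glycan-degrading enzymes and 7 proteins of lysosomal lipid breakdown. They were taken by exact symbol from a liver count table of 35976 genes, and all 39 were found and passed the filter on low counts. Their lowest count in a library was 44 and their highest 32644. The table holds 6 poly(A) RNA libraries from livers of male mice, of which 3 were IRE1fl and 3 IRE1PKO. IRE1 is the endoplasmic reticulum stress sensor encoded by Ern1. All mice of both groups received the diet given as HFD, presumably a high-fat diet, and were fasted for 16 hours and then fed for 4 hours before liver collection. The labels do not spell out PKO. The series title concerns communication between pituitary and liver. No source used here gives the promoter that drives the deletion, the age or the strain. Nothing in the labels ties each library of a group to its own animal, so the p-values reflect variation among 3 libraries a group that could be technical.

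Lysosomes are the acidic organelles in which cells break down proteins, glycans and lipids delivered by endocytosis and autophagy. A proton pump, the V-ATPase, keeps the lumen acidic, soluble hydrolases do the digestion, and heavily glycosylated membrane proteins line the limiting membrane. Many genes of the organelle are transcribed together by TFEB and its relatives TFE3 and MITF, which move to the nucleus when the kinase mTORC1 at the lysosome surface is inactive, and which bind a palindromic E-box called the CLEAR element. In liver, lysosomes degrade lipoproteins, lipid droplets and worn organelles in hepatocytes and engulfed material in Kupffer cells.

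Total counts were 35776219 to 39277435 per library, and the 39 genes took 0.534% to 0.688% of them. Alb, the albumin gene, took 5.56% to 7.19% of counts, and every one of 10 hepatocyte markers had counts in every library. Levels are given as CPM, the usual scaled count, relative to the library total over the genes that passed the low-count filter, after TMM scaling. The CPM of Ern1 were 61.2, 49.3 and 60.8 in IRE1fl against 45.7, 36.6 and 44.2 in IRE1PKO, a log2 fold change of -0.44 (SE 0.11, edgeR adjusted p = 0.0357). That call was lost in limma-voom, when only library totals scaled the counts, and without any 1 library other than IRE1fl 2. It checks no label if the deletion lies outside the liver. Over all 14954 tested genes, 849 were higher in IRE1PKO and 577 lower, which is 9.54% in either direction. The split moved from 59.5% higher among the calls to 73.4% with library totals as the only scaling.

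Of the 39 lysosomal genes, 6 rose in IRE1PKO and none fell. The 6 were Lipa and Asah1 of lipid breakdown, Hexa of glycan and ganglioside breakdown, the cathepsins Ctsd and Ctsz, and the V-ATPase subunit gene Atp6v1a. Their levels were 1.35 to 1.68 times those in IRE1fl. The share that rose was 15.4%, against 5.68% of all tested genes that rose, 3.86% that fell and 9.54% called in either direction. By unadjusted p under 0.05, 15 of the 39 were higher and 1 was lower. Of all 14954 tested genes, 1426 were called in either direction and 2315 more had an unadjusted p under 0.05. DESeq2 called 9 of the 39 higher and none lower, and limma-voom 6 higher and none lower. Over all 14954 tested genes, DESeq2 called 1182 higher and 890 lower, and limma-voom 801 higher and 578 lower. The median log2 fold change was 0.16 over the 39 genes and 0.00 over all tested genes, and 28 of the 39 had a value above 0, as had 7441 of all tested genes. In 13 of the 39 all IRE1PKO libraries lay above all IRE1fl libraries and in none below, where 16.0% and 15.0% of all tested genes did so. The list was assembled with results of these data known, so these counts are descriptions of the list.

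**Figure D1:**
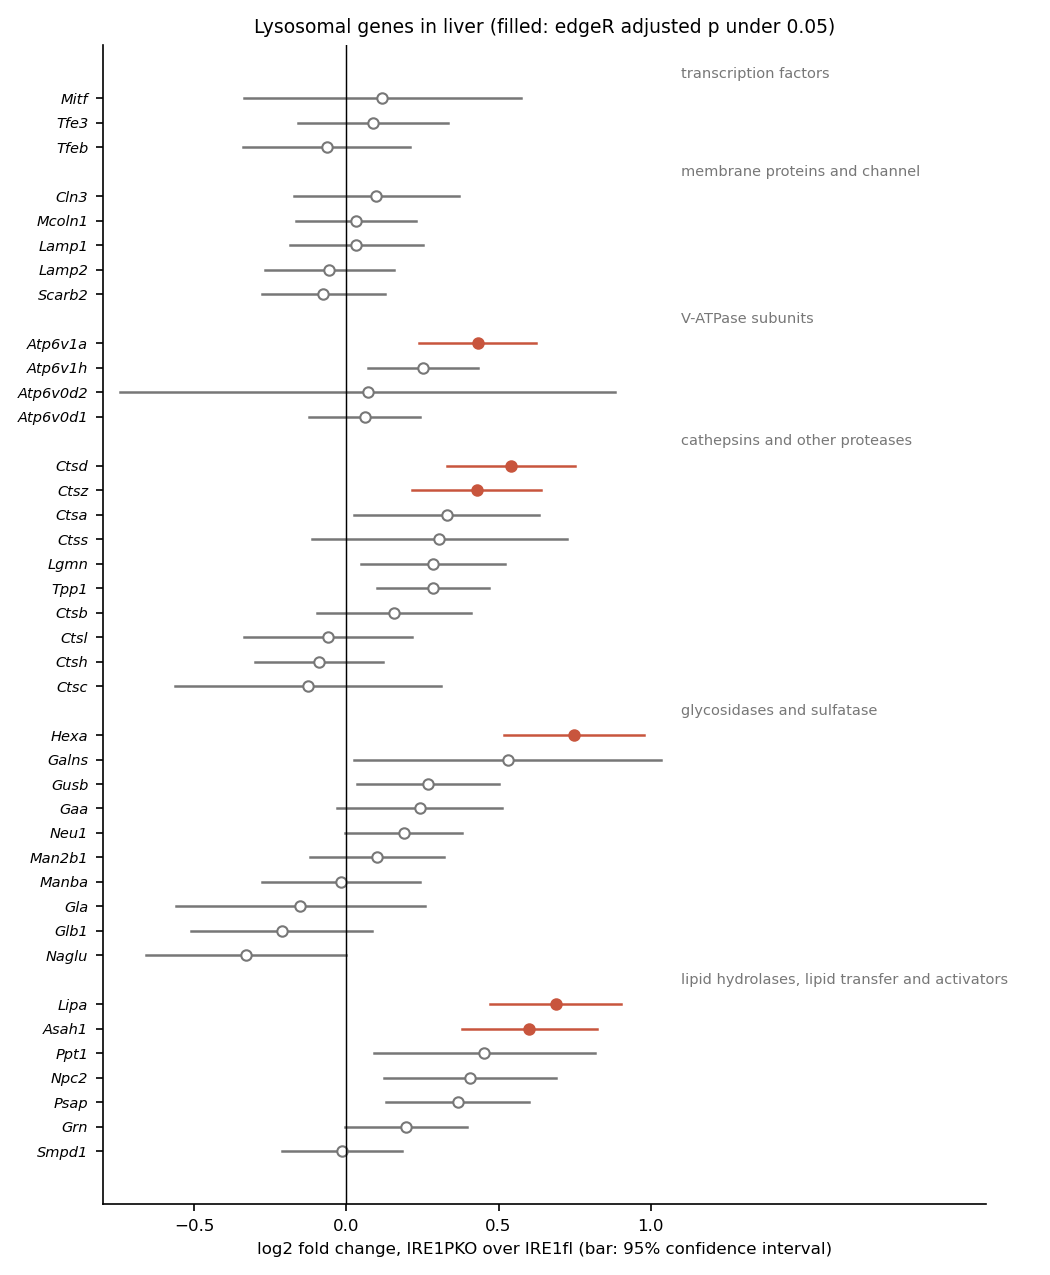
Log2 fold change of each of the 39 genes, IRE1PKO over IRE1fl, grouped by role, with the 95% confidence interval of the edgeR fit as a bar. Filled points passed an adjusted p of 0.05. The 6 filled points lie in the 4 lower groups, and the 8 transcription factor and membrane protein genes have intervals that span 0.

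The CLEAR element was searched for in the RefSeq promoter windows (GRCm38.p6) of 300 bases around each start site, of which 33 of the 39 genes had at least 1. Atp6v0d2, Atp6v1h, Ctsb, Ctsh, Galns and Asah1 had none. The letters searched were the E-box CACGTG, its extension TCACGTGA and the full 10-base CLEAR palindrome, which has G before and C after those 8 bases. Each reads the same on both strands, and each longer form contains the shorter ones. CACGTG was present in 13 of the 33 genes (39.4%), against 11.3% of 11152 tested genes with a window and 8.09% of all 27025 genes with a window. TCACGTGA was present in 7 of the 33 (21.2%), against 2.03% of the tested genes and 1.12% of all genes. The 10-base form was present in Cln3 alone, against 0.744% of the tested genes.

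E-boxes were found both in genes that rose and in genes that did not pass. Of the 5 risen genes with a window, Ctsd and Atp6v1a held CACGTG, both within the 8-base form, and Lipa, Hexa and Ctsz did not hold it. Of the 28 that did not pass, 11 held CACGTG and 5 the 8-base form, and the difference between these shares was not tested. Over the whole table, 15 of 226 tested genes with TCACGTGA rose (6.64%) and 6 fell (2.65%), where 5.68% of tested genes with a window rose and 3.73% fell. A match shows only that the letters are there.

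The stretches printed here are examples with and without an E-box, each the 250 bases before a start site, read 5′ to 3′ on the gene's strand, with every E-box form in capitals. Cln3 is shown for the full element, Ctsd and Atp6v1a as risen genes with the 8-base form, Lipa and Hexa as risen genes with no E-box, and Lamp1 for its 4 E-boxes beside a level that did not pass the test. All except Cln3 were chosen after their values were seen. The Cln3 stretch lies before an internal start, and the window at its outermost start held no E-box. The Atp6v1a stretch also lies before an internal start, within the gene, whose outer end is at 44139702.
Cln3, chr7:126583237-126583486, minus strand: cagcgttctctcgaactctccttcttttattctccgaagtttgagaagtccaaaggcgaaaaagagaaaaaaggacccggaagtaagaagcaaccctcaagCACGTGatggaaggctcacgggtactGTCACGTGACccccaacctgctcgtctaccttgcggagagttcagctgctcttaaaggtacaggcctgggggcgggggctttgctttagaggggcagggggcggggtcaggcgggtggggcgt
Ctsd, chr7:142387828-142388077, minus strand: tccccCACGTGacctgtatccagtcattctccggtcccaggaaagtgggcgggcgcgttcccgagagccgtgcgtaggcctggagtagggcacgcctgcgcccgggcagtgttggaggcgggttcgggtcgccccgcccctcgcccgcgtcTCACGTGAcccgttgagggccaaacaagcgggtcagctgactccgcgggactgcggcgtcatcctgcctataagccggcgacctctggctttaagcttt
Atp6v1a, chr16:44139260-44139509, minus strand: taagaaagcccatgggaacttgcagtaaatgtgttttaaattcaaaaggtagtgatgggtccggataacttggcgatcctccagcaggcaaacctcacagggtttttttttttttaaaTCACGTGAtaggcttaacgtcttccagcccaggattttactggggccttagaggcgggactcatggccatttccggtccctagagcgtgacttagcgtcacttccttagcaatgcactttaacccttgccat
Lipa, chr19:34527475-34527724, minus strand: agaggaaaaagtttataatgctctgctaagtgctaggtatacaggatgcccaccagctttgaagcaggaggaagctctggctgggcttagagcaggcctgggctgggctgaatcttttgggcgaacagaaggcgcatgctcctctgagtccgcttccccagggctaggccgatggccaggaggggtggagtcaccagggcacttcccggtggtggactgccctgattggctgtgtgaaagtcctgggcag
Hexa, chr9:59539290-59539539, plus strand: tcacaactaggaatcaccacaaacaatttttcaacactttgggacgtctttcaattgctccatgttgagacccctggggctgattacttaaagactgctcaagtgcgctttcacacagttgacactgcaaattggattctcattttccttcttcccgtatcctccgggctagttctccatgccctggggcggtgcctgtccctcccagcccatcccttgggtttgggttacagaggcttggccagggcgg
Lamp1, chr8:13158911-13159160, plus strand: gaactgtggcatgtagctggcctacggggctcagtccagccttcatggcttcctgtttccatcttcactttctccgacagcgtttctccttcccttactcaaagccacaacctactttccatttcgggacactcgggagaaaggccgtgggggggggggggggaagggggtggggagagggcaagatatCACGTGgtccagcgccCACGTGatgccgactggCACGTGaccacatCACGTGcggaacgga

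In the Cln3 stretch the E-box of the full element began 121 bases before the start. In Ctsd the E-box within the 8-base form began 98 bases before the start, and in Atp6v1a 131 bases before the internal start. The 4 E-boxes of Lamp1 began 61, 45, 28 and 15 bases before its start.

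None of the 3 transcription factor genes passed the test. Tfeb (chromosome 17, 47737037 to 47792416), the factor for which the lysosomal programme is best known, had 12.5, 11.9 and 13.1 CPM in IRE1fl and 10.9, 13.4 and 11.6 CPM in IRE1PKO. The groups overlapped, and its log2 fold change was -0.06 (95% interval -0.34 to 0.21, edgeR adjusted p = 0.794). Tfe3, which shares most targets with Tfeb, had 23.9, 25.7 and 24.2 CPM in IRE1fl and 29.8, 26.2 and 22.4 CPM in IRE1PKO, a log2 fold change of 0.09 (-0.16 to 0.33). The highest and the lowest Tfe3 values were both in IRE1PKO libraries. Mitf, better known from melanocytes and osteoclasts, had 3.41, 3.74 and 4.47 CPM in IRE1fl and 5.01, 3.53 and 4.08 CPM in IRE1PKO, a log2 fold change of 0.12 (-0.34 to 0.57). Transcript levels do not report where these factors sit in the cell. With library totals as the only scaling the Tfeb value was 0.01, so its direction depends on the scaling.

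None of the 5 membrane protein genes passed either. For these 5 and the 3 transcription factor genes together, no gene was past an unadjusted p of 0.05 in edgeR, and none was called by DESeq2 or limma-voom. Lamp1, the main glycoprotein of the lysosomal membrane, had 745, 677 and 763 CPM in IRE1fl, against 775, 704 and 757 CPM in IRE1PKO, a log2 fold change of 0.03 (-0.19 to 0.25). Lamp2, whose isoforms take part in chaperone-mediated autophagy, had 548, 534 and 603 CPM in IRE1fl, against 525, 534 and 561 CPM in IRE1PKO, a log2 fold change of -0.06 (-0.27 to 0.16). The Lamp2 direction also turned with library totals as the only scaling (0.02). The mean of Scarb2, which carries glucocerebrosidase to lysosomes, was 228 ± 9.11 CPM against 216 ± 14.7 CPM (SD, n = 3). Mcoln1, the calcium-releasing channel of the lysosome, had 39.7 ± 3.32 and 40.6 ± 0.913 CPM, and Cln3, a membrane protein lost in juvenile Batten disease, 15.7 ± 1.03 and 16.8 ± 2.35 CPM. The upper ends of these 5 intervals run from 0.13 to 0.37. Intervals of the risen genes Ctsz, Atp6v1a and Ctsd begin at 0.22, 0.24 and 0.33, and so overlap that of Cln3, which ends at 0.37. No difference between genes was tested.

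Among the V-ATPase subunits 1 of 4 rose. Atp6v1a (chromosome 16, 44085402 to 44139702) encodes the catalytic A subunit that hydrolyses ATP. It had 56.5, 50.6 and 52.2 CPM in IRE1fl and 70.6, 67.7 and 76.6 CPM in IRE1PKO, a log2 fold change of 0.43 (SE 0.09, edgeR adjusted p = 0.0113). The groups did not overlap, and the call was lost without IRE1fl 2 (edgeR adjusted p = 0.0524). Atp6v1h, the regulatory H subunit, had 54.6, 51.5 and 50.1 CPM against 63.8, 63.4 and 58.9 CPM. Its groups did not overlap either, but its log2 fold change of 0.25 (SE 0.08) did not pass (adjusted p = 0.0800). The membrane sector has a d subunit in a pair of forms. The widely expressed Atp6v0d1 had 65.8, 70.0 and 72.7 CPM in IRE1fl and 74.7, 73.7 and 69.1 CPM in IRE1PKO, a log2 fold change of 0.06 (-0.12 to 0.24). Atp6v0d2, the form known from osteoclasts and macrophages, had 1.61, 1.25 and 3.40 CPM in IRE1fl and 2.77, 1.82 and 1.98 CPM in IRE1PKO. The wide interval of Atp6v0d2, -0.74 to 0.88, leaves its change unresolved at this depth, and its sign differed when IRE1fl 1, IRE1fl 2 or IRE1PKO 1 was left out.

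**Figure D2:**
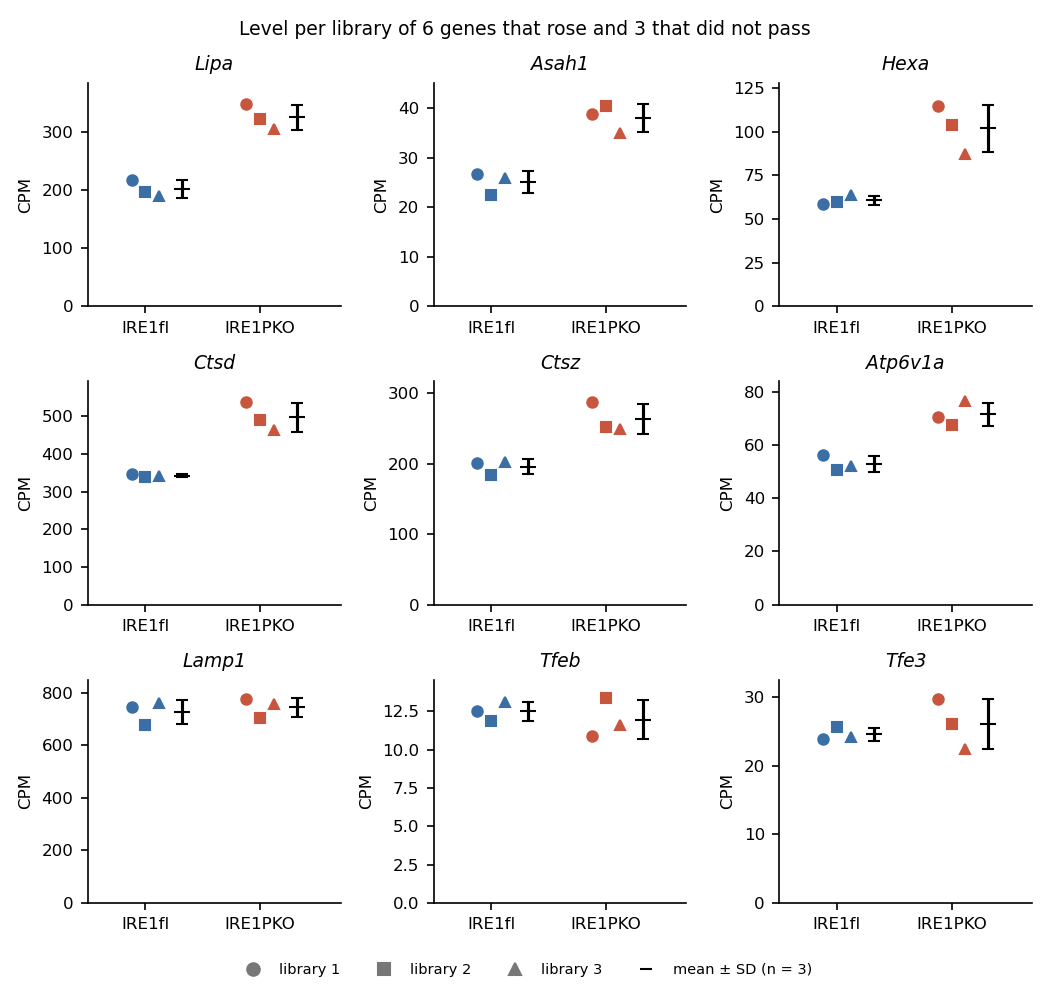
CPM in each library for the 6 genes that rose and for Lamp1, Tfeb and Tfe3, which did not pass, with mean ± SD (n = 3) beside the points. All axes start at 0. The groups are apart in the upper 6 panels, for example 189.6 to 218 against 305 to 348 CPM for Lipa, and overlap in the lower 3.

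Of the 10 protease genes 2 rose. Ctsd (chromosome 7, 142375910 to 142387827), the main aspartic protease of lysosomes, had 346, 339 and 342 CPM in IRE1fl, against 539, 489 and 464 CPM in IRE1PKO. Its log2 fold change was 0.54 (SE 0.10, edgeR adjusted p = 0.00561). The IRE1fl libraries differed little, with a coefficient of variation of 1.02%, and the IRE1PKO libraries by 7.67%. Ctsz (chromosome 2, 174427494 to 174439039), a cathepsin that trims single residues from the carboxyl end, had 201, 184 and 203 CPM in IRE1fl and 288, 253 and 249.6 CPM in IRE1PKO. It rose by a log2 value of 0.43 (SE 0.10, edgeR adjusted p = 0.0181). The Ctsz call was lost without IRE1fl 2 or without IRE1PKO 1, with an adjusted p of up to 0.0813.

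The other 8 protease genes did not pass, and 3 of them had an unadjusted p under 0.05. Tpp1, a tripeptidyl peptidase, had 94.9, 86.6 and 87.9 CPM in IRE1fl, against 115, 107 and 106 CPM in IRE1PKO, groups that did not overlap (log2 fold change 0.29, SE 0.08, adjusted p = 0.0547). Lgmn, the asparaginyl endopeptidase that matures other cathepsins, had 67.7, 55.7 and 68.5 CPM against 80.6, 84.1 and 69.4 CPM, with IRE1PKO 3 close above the IRE1fl libraries. Ctsa, a carboxypeptidase that also shields beta-galactosidase and neuraminidase from breakdown, had 101, 103 and 145 CPM against 149.8, 135 and 154 CPM. IRE1fl 3 lay apart from the other 2 IRE1fl libraries, and without it Ctsa passed (log2 fold change 0.52, edgeR adjusted p = 0.0189). With a different library left out, the edgeR adjusted p of Ctsa was as high as 0.399.

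The remaining 5 proteases had overlapping groups. Ctsb, an abundant cysteine protease, had 756, 587 and 696 CPM in IRE1fl and 776, 790.3 and 703 CPM in IRE1PKO, a log2 fold change of 0.16 (-0.10 to 0.41). Ctsl, an endopeptidase, had 473, 403 and 528 CPM against 485, 471 and 389.8 CPM, and Ctsh, an aminopeptidase, 237 ± 5.11 against 223 ± 19.8 CPM. Ctss, an antigen-processing protease rich in macrophages and other myeloid cells, had 43.8, 28.9 and 37.8 CPM against 41.6, 55.9 and 39.1 CPM. Ctsc, which activates granule proteases of immune cells, had 122, 85.7 and 104 CPM against 85.7, 78.7 and 121 CPM. Both of these last genes overlapped between groups, with intervals of -0.11 to 0.73 for Ctss and -0.56 to 0.31 for Ctsc.

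Of the 10 glycan-degrading enzymes 1 rose. Hexa (chromosome 9, 59539540 to 59565109) encodes the alpha subunit of beta-hexosaminidase, whose loss causes the ganglioside storage of Tay-Sachs disease. It had 58.4, 59.9 and 63.5 CPM in IRE1fl and 114, 104 and 87.4 CPM in IRE1PKO. The lowest IRE1PKO library was above the highest IRE1fl library, and the log2 fold change of 0.75 (SE 0.10, edgeR adjusted p = 0.00165) was the largest of the 39.

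Of the other 9, Gusb, Galns and Naglu had an unadjusted p under 0.05. Gusb, the beta-glucuronidase, had 35.5, 35.2 and 33.1 CPM against 48.3, 37.4 and 39.2 CPM, without overlap (log2 fold change 0.27, adjusted p = 0.143). Galns, a sulfatase of keratan and chondroitin sulfate, had 2.85, 5.39 and 3.96 CPM against 5.19, 6.24 and 6.18 CPM, with overlap. Naglu, an enzyme of heparan sulfate breakdown, was the one gene of the 39 with an unadjusted p under 0.05 and a value below 0, with 29.1, 33.8 and 43.4 CPM in IRE1fl against 29.4, 30.6 and 24.6 CPM in IRE1PKO (log2 fold change -0.33, adjusted p = 0.196). Gaa, the acid alpha-glucosidase that degrades glycogen, had 114, 107 and 104 CPM against 151, 129 and 104 CPM. IRE1PKO 3 lay within the range of the IRE1fl libraries, and without it Gaa passed (log2 fold change 0.37, edgeR adjusted p = 0.0484). With a different library left out, the edgeR adjusted p of Gaa was as high as 0.651. Glb1, Gla, Manba, Man2b1 and Neu1, which remove galactose, mannose or sialic acid residues, had log2 fold changes from -0.21 to 0.19, all with overlapping groups.

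The 7 genes of lipid breakdown held 2 of the 6 calls. Lipa (chromosome 19, 34492316 to 34527474) encodes lysosomal acid lipase, which hydrolyses cholesteryl esters and triglycerides taken up in lipoproteins. It had 218, 197 and 189.6 CPM in IRE1fl, against 348, 322 and 305 CPM in IRE1PKO, a rise of 0.69 on the log2 scale (SE 0.10, edgeR adjusted p = 0.00181). Asah1 (chromosome 8, 41340646 to 41397644), the acid ceramidase, had 26.8, 22.5 and 26.0 CPM in IRE1fl and 38.8, 40.4 and 35.0 CPM in IRE1PKO, a rise of 0.60 (SE 0.10, edgeR adjusted p = 0.00413). The groups were apart for both genes.

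Psap, Npc2 and Ppt1 had unadjusted p-values under 0.05 and did not pass after adjustment. Psap, the precursor of the saposins that present sphingolipids to their hydrolases, had 653, 575 and 566 CPM in IRE1fl, against 838, 761 and 711 CPM in IRE1PKO, without overlap (log2 fold change 0.37, SE 0.11, adjusted p = 0.0547). Npc2, a soluble carrier of cholesterol in the lysosome lumen, had 64.8, 68.1 and 69.3 CPM against 104, 93.6 and 70.5 CPM. IRE1PKO 3 lay just above the IRE1fl libraries, and without it Npc2 passed (log2 fold change 0.55, edgeR adjusted p = 0.00518). With a different library left out, the edgeR adjusted p of Npc2 was as high as 0.236. Ppt1, a thioesterase that strips fatty acids from proteins, had 36.0, 22.6 and 28.6 CPM against 39.5, 35.5 and 44.5 CPM, with overlap. Grn, the progranulin gene, had 228, 205 and 224 CPM against 265, 248 and 239 CPM, without overlap (log2 fold change 0.19, adjusted p = 0.213). Smpd1, the acid sphingomyelinase, had 49.9 ± 1.93 against 49.4 ± 4.24 CPM, with an interval of -0.21 to 0.18.

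The calls of Lipa, Asah1, Hexa and Ctsd held under each of 16 alternative settings, with adjusted p of at most 0.0116, 0.0227, 0.00949 and 0.0297. In the 3-against-3 comparison, the same test recovered 34.3% of 1.5-fold changes simulated in genes drawn from all levels. Recovery for the lysosomal genes alone was not simulated, so that share does not give the chance of a miss among them. A miss does not show that a gene did not change, and its interval shows which changes remain possible. The membrane protein intervals end at log2 values of 0.13 to 0.37, below a 1.5-fold rise, whereas that of Atp6v0d2 runs to 0.88. The 10 genes past an unadjusted p of 0.05 but not the adjusted one are unresolved.

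Levels of different genes were compared per kilobase of exon. Lamp1 was the most abundant of the 39 in IRE1fl, with 327 ± 20.3 CPM per kilobase, followed by Psap with 218 ± 17.4 and Ctsd with 161 ± 1.63 (SD, n = 3). Ctsh, Ctsb and Ctsz followed with 147 ± 3.16, 143 (124 to 159 over the libraries) and 136 ± 7.28, and Ctsh and Ctsb did not differ beyond their spread. In IRE1PKO the order of the first 3 was the same, with 334 ± 16.6, 281 ± 23.3 and 234 ± 17.9, and Ctsz stood in place 4 with 183 ± 15.0. Lipa stood in place 10 in IRE1fl with 67.9 ± 4.97 and in place 7 in IRE1PKO with 109 ± 7.22. Hexa moved from place 16 to place 11, with 30.4 ± 1.29 and 51.0 ± 6.83. The transcription factors were near the bottom, with 6.79 ± 0.266 for Tfe3, 3.11 ± 0.151 for Tfeb and 0.729 ± 0.103 for Mitf in IRE1fl.

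**Figure D3:**
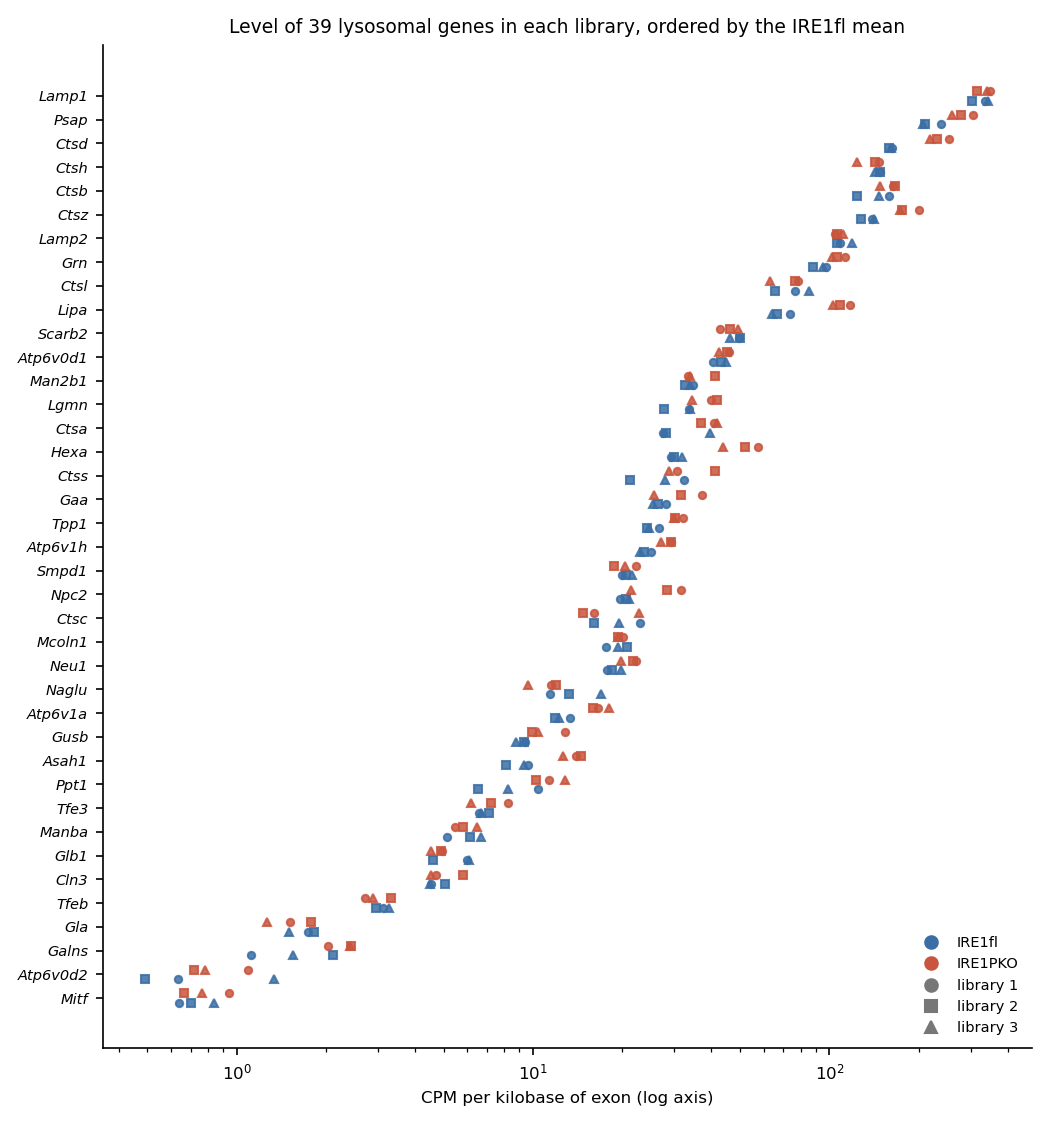
CPM per kilobase of exon for each of the 39 genes in each library, on a log axis, ordered by the IRE1fl mean. Lamp1 is at the top with 327 and Mitf at the bottom with 0.729 CPM per kilobase in IRE1fl.

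The 6 libraries did not contribute alike. IRE1PKO 1 was the highest of its group for 22 of the 39 genes and IRE1PKO 3 the lowest for 23, where 34.0% and 36.8% of all tested genes had those positions. IRE1fl 2 was the lowest of its group for 18 of the 39, against 32.5% of all tested genes. The summed level of the 39 genes was 5968, 5423 and 5927 CPM in IRE1fl, against 6868, 6561 and 6279 CPM in IRE1PKO, and the groups did not overlap. The sum of the lipid breakdown genes was 1141 to 1274 CPM in IRE1fl, against 1455 to 1686 CPM in IRE1PKO, 1.31 times as high on average. The V-ATPase sum was 173 to 179 against 207 to 212 CPM. The protease sum was 2111 to 2445 against 2496 to 2798 CPM. That of the glycan-degrading enzymes was 451 to 470 against 479 to 567 CPM, and none of these sums overlapped between groups. The membrane protein sum, 1505 to 1639 against 1515 to 1605 CPM, overlapped, as did that of the transcription factors, 39.8 to 41.7 against 38.1 to 45.6 CPM.

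Markers of other liver cells, many of which carry lysosomal transcripts of their own, were read beside these sums. In bulk tissue, fewer cells of a type and less RNA per cell cannot be told apart. Of 12 Kupffer cell and macrophage markers none rose and 1 fell, Marco, a scavenger receptor, by 0.84 on the log2 scale (SE 0.13). Of the 12, 11 had a log2 fold change above 0, and the median was 0.27. By unadjusted p under 0.05, 3 of them were higher, DESeq2 called 1 higher and limma-voom none. Their sum was 517 to 703 CPM in IRE1fl, against 605 to 843 CPM in IRE1PKO, with overlap. Clec4f, a defining Kupffer cell gene named after its values were seen, had 135, 105 and 116 CPM against 139, 169 and 121 CPM.

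Among 10 genes that mark recruited or lipid-associated macrophages, Gpnmb and Spp1 rose. By unadjusted p under 0.05, 7 of the 10 were higher, and DESeq2 called 5 higher and limma-voom 2. Of the 10, 9 had a log2 fold change above 0, with a median of 0.91. The sum of the list was 50.2 to 54.9 CPM in IRE1fl and 88.9 to 119 CPM in IRE1PKO, and Spp1, which bile duct cells also express, made up 42.0% of it. No marker of these 2 macrophage lists was at 0 counts in any library. The macrophage sums were highest in IRE1PKO 1 for the recruited list and in IRE1PKO 2 for the Kupffer list. The part of macrophages in the rise of the 6 genes was not tested.

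Hepatocyte markers summed to 92251 to 107734 CPM in IRE1fl, against 85401 to 102797 CPM in IRE1PKO, with overlap. Alb made up 65.8% of that sum. Of the 10 hepatocyte markers 7 had a log2 fold change below 0. The 4 that fell included Cps1, Ass1 and Tat, at log2 fold changes of -1.16, -0.99 and -1.10. Stellate cell markers rose in 6 of 8 genes, among them Col3a1 by 1.60, Lrat by 0.96 and Col1a1 by 2.08, and summed to 231 to 288 against 435 to 444 CPM. Sinusoidal endothelial markers rose in 3 of 8 genes, Fcgr2b, Pecam1 and Stab2, by 0.47 to 0.48, and summed to 239 to 259 against 277 to 372 CPM. All 8 had a log2 fold change above 0, with a median of 0.46. By unadjusted p under 0.05, 7 were higher, and DESeq2 called 5 higher and limma-voom 4. The 3 edgeR calls were all lost without any 1 of IRE1fl 2, IRE1fl 3, IRE1PKO 1 or IRE1PKO 2. Of 8 T, NK and B cell markers Cd4 fell, and of 4 tested cholangiocyte markers Sox9 fell. None of 3 tested neutrophil markers passed by any of the 3 tools or had an unadjusted p under 0.05, and Ly6g was at 0 counts in 5 libraries. The part of each of these cell types in the lysosomal values was not tested.

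**Figure D4:**
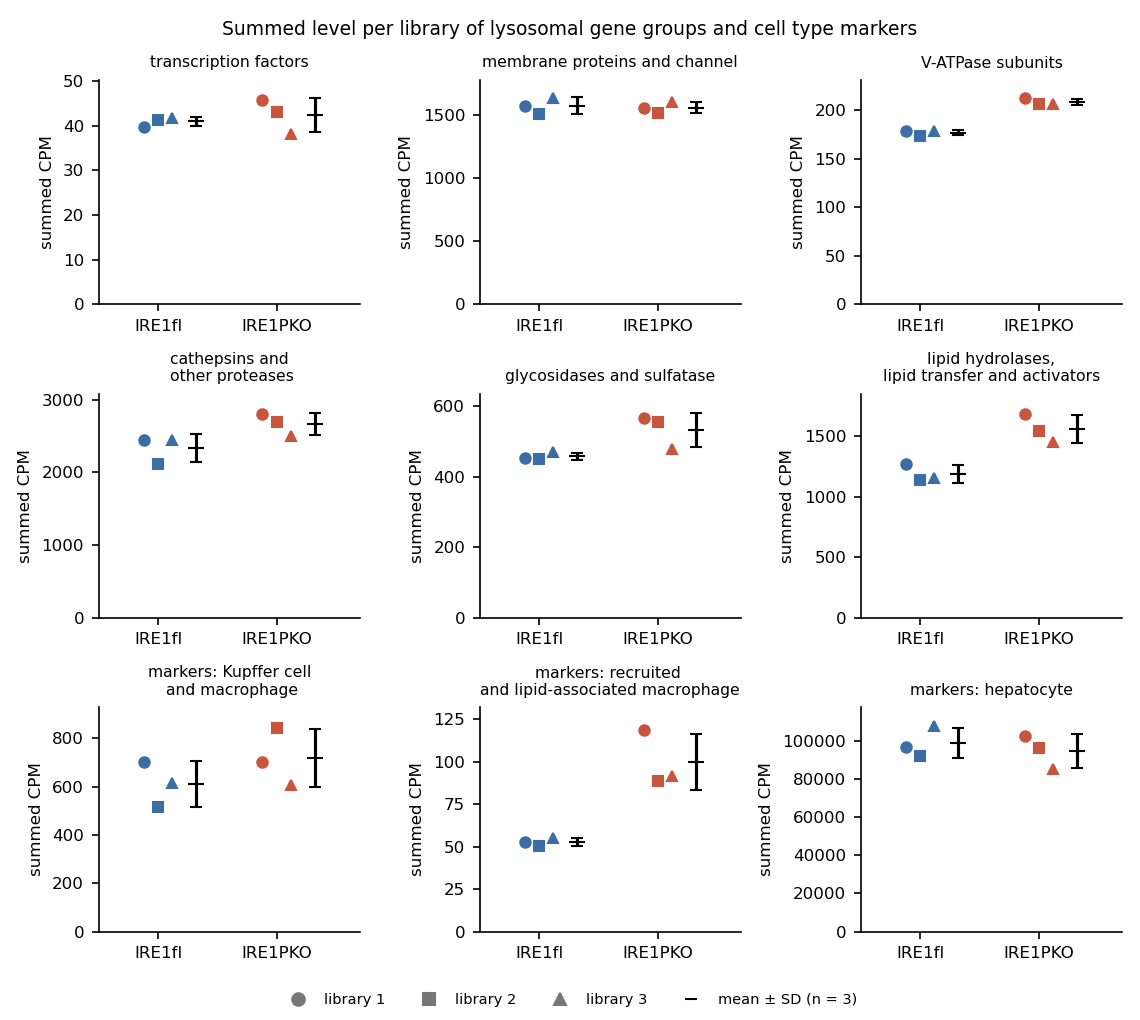
Summed CPM per library for the 6 lysosomal role groups and for 3 marker lists, with mean ± SD (n = 3) and axes from 0. The lipid breakdown sum (1141 to 1274 against 1455 to 1686 CPM) and the recruited macrophage sum (50.2 to 54.9 against 88.9 to 119 CPM) are apart between groups, and the membrane protein, Kupffer cell and hepatocyte sums overlap. The V-ATPase, protease and glycan-degrading enzyme sums are apart as well, and the transcription factor sum overlaps. Alb makes up 65.8% of the hepatocyte sum.

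The rest of the pathway was read from 114 other lysosome and autophagy genes, of which 113 were tested. In all 10 rose (8.85%) and 2 fell (1.77%), with a median log2 fold change of 0.06, against 5.68% and 3.86% of all tested genes. Of 27 further hydrolases 3 rose and 1 fell. Scpep1, a serine carboxypeptidase, had 27.8, 32.9 and 30.8 CPM in IRE1fl and 55.2, 57.6 and 45.8 CPM in IRE1PKO (log2 fold change 0.79, SE 0.11). Arsb, a sulfatase of dermatan sulfate, rose by 0.52 (SE 0.09) and Siae, a sialic acid esterase, by 0.41 (SE 0.10). Hyal1, a hyaluronidase, fell (log2 fold change -0.33, SE 0.08), but it did not pass once any 1 library was left out.

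Of 23 further membrane proteins 3 rose and 1 fell. Gpnmb, a glycoprotein of loaded macrophages that is also in the recruited macrophage list, had 0.360, 0.170 and 0.108 CPM in IRE1fl and 1.72, 2.31 and 3.64 CPM in IRE1PKO. Cd63, a tetraspanin of late endosomes, had 5.10, 2.92 and 3.13 CPM against 12.3, 8.82 and 11.1 CPM (log2 fold change 1.53, SE 0.23). Tmem55b, a phosphatase-like protein that positions lysosomes, rose by 0.46 (SE 0.12). Sort1, a sorting receptor of the Golgi and endosomes, fell from 16.0, 20.1 and 21.2 CPM to 11.2, 9.47 and 12.3 CPM (log2 fold change -0.79, SE 0.14).

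Of 15 further V-ATPase genes Atp6ap2, an accessory subunit, rose by 0.41 (SE 0.09). None of 5 genes of mannose 6-phosphate sorting, which sends hydrolases to lysosomes, passed in edgeR, DESeq2 or limma-voom, and 1 had an unadjusted p under 0.05. Of 16 tested genes of nutrient sensing upstream of TFEB 2 rose. Mtor, the kinase that holds TFEB in the cytoplasm, had 65.9, 63.6 and 68.5 CPM in IRE1fl and 120.2, 105 and 95.6 CPM in IRE1PKO, a rise of 0.70 (SE 0.10, edgeR adjusted p = 0.00173). Rragc, a Rag GTPase that recruits the mTOR complex to the lysosome surface, rose by 0.40 (SE 0.09). Of 27 autophagy genes 1 rose, Vps18, a tethering subunit for fusion with lysosomes, by 0.41 (SE 0.11), and the median of that list was -0.06. Scpep1, Arsb, Gpnmb, Cd63, Sort1 and Mtor kept their calls without each library in turn. Siae, Tmem55b, Atp6ap2, Rragc and Vps18 each lost theirs without IRE1fl 2, IRE1PKO 1 or IRE1PKO 2, among others for some. Tmem55b was also lost in limma-voom and without robust fitting, Vps18 in limma-voom, and Hyal1 with library totals as the only scaling.

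**Figure D5:**
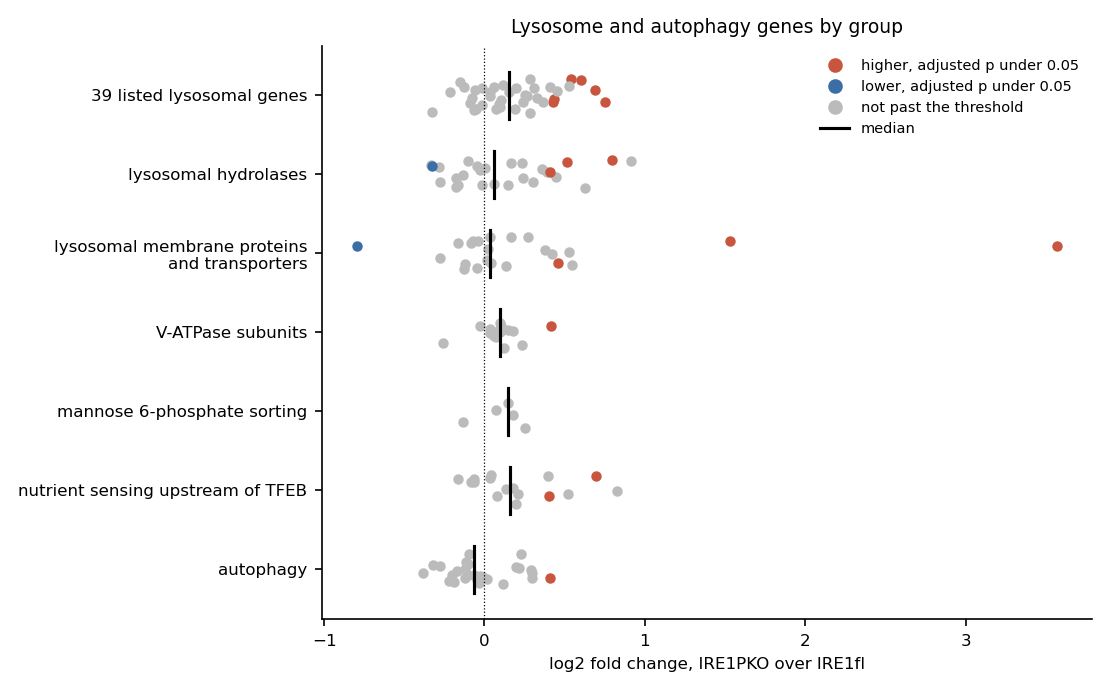
Log2 fold change, IRE1PKO over IRE1fl, of the 39 genes and of the 113 other tested lysosome and autophagy genes, 1 point a gene, with the median of each group as a black bar. The medians run from -0.06 for autophagy to 0.16 for the 39 genes and for nutrient sensing.

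Some genes share exon bases with a neighbour, and no source used here says whether counting used strand. In GENCODE M21, a model on the same strand, Gm49369, covers 31.5% of the exon bases of Ctsd. The models Gm47123 and Gm49230 cover up to 28.2% of those of Ctsl, and an opposite-strand neighbour covers 16.3% of those of Ctsb (Fdft1), 13.5% of Ctsa (Pltp), 13.2% of Cln3 (Apobr) and 7.94% of Lamp1 (Grtp1). Ctsz shares 10 bases with Nelfcd. Lipa, Asah1, Hexa and Atp6v1a share none with another gene. Values of the genes that share bases are uncertain to that extent.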

How the data were processed

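Poly(A) RNA of 6 mouse liver libraries was compared, 3 IRE1fl and 3 IRE1PKO. The authors deposited raw counts per gene symbol, 1 column per library, and the submitters' processing notes name genome build mm10. No source used here names the aligner, counter or annotation. Columns were matched to samples by genotype and number in their names. Even counts from 1 to 8 outnumbered odd ones 2.58 to 3.19 times in each library, and halved counts were therefore tried as an alternative.

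Of 35976 genes, 14954 passed filterByExpr. The robust quasi-likelihood test of edgeR 4.0.16 in R 4.3.3, two-sided, was run with TMM scaling. P-values were adjusted by Benjamini-Hochberg over these 14954 genes, and calls were made at 0.05. Standard errors come from the F statistic. CPM use the TMM-scaled totals of the tested genes. An exact permutation test of 3 against 3 cannot go below p = 0.1. Exon lengths are unions over GENCODE M21 basic transcripts, and positions and promoters are RefSeq, GRCm38.p6.

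The 39 genes and all lists were chosen with earlier results of these data known. Named are all 39, then up to 4 called genes with the smallest p from each pathway list and up to 3 from each marker list. On counts simulated for the 14954 genes, 34.3% of 67 genes with a 1.5-fold change were found. At 2-fold it was 62.7% of 67 genes, and at 4-fold 90.9% of 66. Of the 137 calls 8.76% were false, and 2 genes were called with none changed. The changed genes were drawn from all levels, and the data themselves gave 1426 calls. No library copied another: within groups, chi-square per gene between pairs was 28.6 to 63.4. Alternatives were other scalings, filters, tools (DESeq2 1.42.0, limma 3.58.1), an adjusted p of 0.1, halved counts, a replicate block and leaving out each library.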

Additional observations from a re-analysis of the deposited data

How the results depend on the processing

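The 6 calls among the 39 genes held in all 10 alternatives that kept every library. Without each library in turn, 4 to 9 of the 39 were called higher, 4 of them without IRE1fl 2, and none lower. The number called higher was 10 when only library totals scaled the counts, and 10 at an adjusted p of 0.1. The median over the 39 genes was 0.23 with library totals and 0.14 to 0.21 without each library. Of the 114 other lysosome and autophagy genes, 1 fell with library totals, 17 rose at an adjusted p of 0.1, and 5 to 13 rose and 1 to 2 fell without each library. Over all genes, 890 fell by DESeq2, 1299 rose and 992 fell at an adjusted p of 0.1, and 398 to 868 rose and 255 to 616 fell without each library.

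Library totals moved the median of all tested genes to 0.07 and turned the sign of Tfeb (0.0081), Lamp2 (0.018), Ctsl (0.011), Manba (0.058), Smpd1 (0.057). Without each library in turn, log2 fold changes near 0 changed sign, with Mcoln1 from -0.032 to 0.092, Atp6v0d2 from -0.19 to 0.62, Lamp1 from -0.018 to 0.072, Ctsl from -0.16 to 0.035, Manba from -0.12 to 0.068, Smpd1 from -0.079 to 0.044, Tfeb from -0.15 to 0.00020, Tfe3 from -0.017 to 0.19, Mitf from -0.025 to 0.23, Cln3 from -0.022 to 0.17 and Man2b1 from -0.0045 to 0.16. No gene with a turned sign was called in any setting. The causes were not tested.

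Deviations of libraries with the same number correlated by 0.071, -0.022 and 0.101 across genes. Libraries numbered 1 and 3 correlated best with their own number in the other group, and those numbered 2 did not. Whether the numbers pair the libraries cannot be told from these values. With the replicate block, 1051 genes were higher and 814 lower, 9 of the 39 genes were higher and 4 of the other lysosome and autophagy genes were lower.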
